A study of Mus musculus with 68 samples.

Results

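The genes examined here lie around Adnp on mouse chromosome 2, the locus whose heterozygous mutation defines the study. The list named 10 protein-coding genes: Ptpn1, Pard6b, Dpm1, Mocs3, Kcng1, Nfatc2, Atp9a, Prelid3b, Tcfl5 and Bcas4. They were looked up by the symbol of each Ensembl identifier among the 18088 genes of the deposited table, and 9 of the 10 were found there. Bcas4 is not analysed here. All 9 passed the filter on low values and were tested. The study sequenced polyadenylated prefrontal cortex RNA of 25-day-old C57BL/6J mice, in 68 stranded libraries. Mice labelled heterozygous for Adnp (HT) were compared with wild-type mice (WT) in 3 arms: vehicle, fluoxetine (a serotonin reuptake inhibitor) and lithium (a mood stabilizer). Pups took the drug from day 3 to day 24 with the milk of their mother, for 3 weeks. The HT groups held 8 females and 8 males under vehicle, 5 and 5 under fluoxetine, and 4 females and 5 males under lithium. The WT groups held 8 females and 7 males under vehicle, 5 and 5 under fluoxetine, and 5 females and 3 males under lithium. The labels used here do not name the mutant allele, nor do they say which pups shared a mother, so the p-values measure the spread between these libraries.

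ADNP is a zinc finger and homeodomain protein that binds DNA and joins chromatin remodelling and heterochromatin proteins to repress transcription, and mutation of 1 copy in people causes a syndromic form of autism. Genes beside a mutated locus can share promoters or transcripts with it, and they are inherited along with it. In a bulk sample, fewer cells that express a gene and less RNA per cell cannot be told apart.

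On GRCm38 with GENCODE vM21 gene bounds, Adnp spans chr2:168180986-168207112 on the minus strand. Pard6b (chr2:168081004-168101203, plus strand) ends 79.8 kb before it on the centromere side, and Ptpn1 (chr2:167932057-167979385, plus strand) ends 201.6 kb before it. On the telomere side Dpm1 (chr2:168209048-168230591, minus strand) begins only 1.94 kb away and runs in the same direction as Adnp. Next come Mocs3 (chr2:168230622-168232594, plus strand) at 23.5 kb, Kcng1 (chr2:168260117-168281736, minus strand) at 53.0 kb, Nfatc2 (chr2:168476410-168601657, minus strand) at 269 kb and Atp9a (chr2:168634438-168742409, minus strand) at 427 kb. The remaining members are distant, with Prelid3b (chr2:174465067-174473081, minus strand) at 6.26 Mb and Tcfl5 (chr2:180621956-180642708, minus strand) at 12.4 Mb. So 7 of the 9 members are among the 21 protein-coding genes of the table that lie within 1 Mb of Adnp, and the other 2 are not close neighbours.

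Adnp and Dpm1 are joined by another annotated gene. Gm20716 (chr2:168180986-168230364, minus strand) is a read-through model of 12 exons that joins exons of Dpm1 to the last exons of Adnp. Of its exonic bases 83.1% are also Adnp exon, 16.9% are also Dpm1 exon and 0% are its own. The junctions below are shown because only the bases before the join tell the transcripts apart. They are from the GENCODE vM21 transcripts, 5′ to 3′ with the shared Adnp exon (chr2:168189282-168189394) in capitals.
Adnp-201: tgtcaattcacaccgAAACTATGTTCCAAC
Adnp-202: cgaggccgagccaagAAACTATGTTCCAAC
Gm20716-201: acacatgagccaaagAAACTATGTTCCAAC
The first 2 lines enter the shared exon from upstream exons of Adnp, and the last line enters it from a Dpm1 exon, chr2:168210431-168210636.

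Upstream sequences came from RefSeq (build GRCm38.p6), which matched 8 of the 9 members. The gap between Dpm1 and Mocs3 and the 250 bases before Nfatc2 and Tcfl5 are shown because these are the closest divergent pair and 2 of the members whose RNA differed by genotype.
Dpm1 to Mocs3, plus strand, chr2:168230592-168230621, CpG in capitals: ggaaaCGgaagtcccttccCGgctctttcc
Nfatc2 upstream, minus strand, chr2:168601658-168601907, TATAAA in capitals: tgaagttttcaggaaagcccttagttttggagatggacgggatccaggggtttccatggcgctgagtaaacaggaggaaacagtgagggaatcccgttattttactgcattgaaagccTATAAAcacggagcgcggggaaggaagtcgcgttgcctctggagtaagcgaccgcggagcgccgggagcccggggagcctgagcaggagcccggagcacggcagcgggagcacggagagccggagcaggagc
Tcfl5 upstream, minus strand, chr2:180642692-180642941, GGGCGG in capitals: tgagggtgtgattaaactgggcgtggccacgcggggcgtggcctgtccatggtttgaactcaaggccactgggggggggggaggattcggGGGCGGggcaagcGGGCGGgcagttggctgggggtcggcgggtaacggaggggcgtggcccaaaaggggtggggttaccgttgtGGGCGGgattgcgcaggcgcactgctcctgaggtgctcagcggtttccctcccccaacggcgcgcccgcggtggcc
By the GENCODE bounds only 30 bases part Dpm1 from Mocs3, which are read in opposite directions. The RefSeq window upstream of Dpm1, chr2:168230380-168230629, takes in this gap, so the RefSeq start of Dpm1 lies farther from Mocs3. The motifs searched on both strands were the GC box GGGCGG, held by the same 250-base window of 32.9% of 27025 mouse promoters, the CCAAT box (34.5%), the E-box CACGTG (6.05%) and the TATA box TATAAA (12.97%). Nfatc2 held 1 TATA box and Tcfl5 held 3 GC boxes. The RefSeq windows of Dpm1 and Mocs3 each held 1 CCAAT box, which lies outside the 30 bases shown. A match describes the letters only.

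The values are normalized counts, that is, reads divided by the authors' size factor for each library. Recovered reads ranged from 22356015 to 37534435 per library. The level of Adnp did not fall with the HT label: under vehicle it had 2261 ± 285 normalized counts in HT (SD, n = 16) and 1829 ± 361 in WT (SD, n = 15; log2 0.32, SE 0.07, adjusted p = 0.00212), and within set 2, described next, the difference was 0.19 (SE 0.10, adjusted p = 0.885). Gene counts do not separate the alleles, and HT and WT below stand for libraries so labelled. Clustering on the levels of 361 pseudogenes was cut into 3 sets of libraries, and no label names these sets. Set 1 held 28 libraries (all fluoxetine and 8 HT vehicle) and set 2 held 28 (all lithium, 6 HT vehicle and 5 WT vehicle). Set 3 held 12 libraries (10 WT vehicle and 2 HT vehicle males). The vehicle replicate numbers followed the sets: numbers 1 to 5 lay in set 1 or 3, and numbers 6 to 8 in set 2. Genotype and set were therefore unevenly mixed under vehicle, and each arm is also given within 1 set that holds both genotypes. The summed cortical excitatory neuron markers were 45411 or more in every library. Olfactory bulb markers summed to between 199 and 20653 and striatal markers to between 2173 and 13943. Both had higher medians in HT in every arm, with overlapping ranges. For olfactory bulb they were 1583 in HT and 967 in WT under vehicle, 4781 and 2467 under fluoxetine, and 919 and 681 under lithium. Striatal medians were 3416 in HT and 3108 in WT, 3101 and 2919, and 7542 and 5592 in the same order. Choroid plexus markers summed to between 58.8 and 5994, with a median of 142. Astrocyte markers were lower in HT in every arm, with medians of 28182 in HT and 30952 in WT under vehicle, 26579 in HT and 28996 in WT under fluoxetine, and 26191 in HT and 29486 in WT under lithium. The part of these markers in the results below was not tested.

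Of the 9 flanking genes, 4 differed between HT and WT when the 3 arms were averaged: Dpm1 and Nfatc2 were higher in HT, and Prelid3b and Tcfl5 were lower. The same 4 passed with each arm taken within 1 library set, a fit that contrasts fewer libraries only under vehicle. The averages were added after the arm results had been seen. Over all genes tested, 7.43% passed this comparison with libraries pooled and 4.65% within sets. Arm by arm with libraries pooled, 4 members passed under vehicle: 2 were higher (Nfatc2 and Atp9a), as were 7.74% of all genes, and 2 were lower (Prelid3b and Tcfl5), as were 7.21%. Under fluoxetine 4 passed (Dpm1 and Nfatc2 higher, Prelid3b and Tcfl5 lower) against 1.98% of all genes, and under lithium 3 passed (Dpm1 and Nfatc2 higher, Prelid3b lower) against 2.51%. The fits within sets contrast the same fluoxetine and lithium libraries with the same log2 differences, and only the estimate of the spread changes. They are thus no separate check in these arms, and gave 4 and 3 calls, beside 2.85% and 4.49% of all genes. Within set 2 under vehicle, which leaves 6 HT and 5 WT libraries, no member passed by limma, 3 had an unadjusted p under 0.05, and 0.536% of all genes passed. The median log2 difference of the 9 members was 0.04 under vehicle, -0.03 under fluoxetine and -0.04 under lithium, and that of all genes was -0.01, 0.00 and 0.00.

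**Figure D1:**
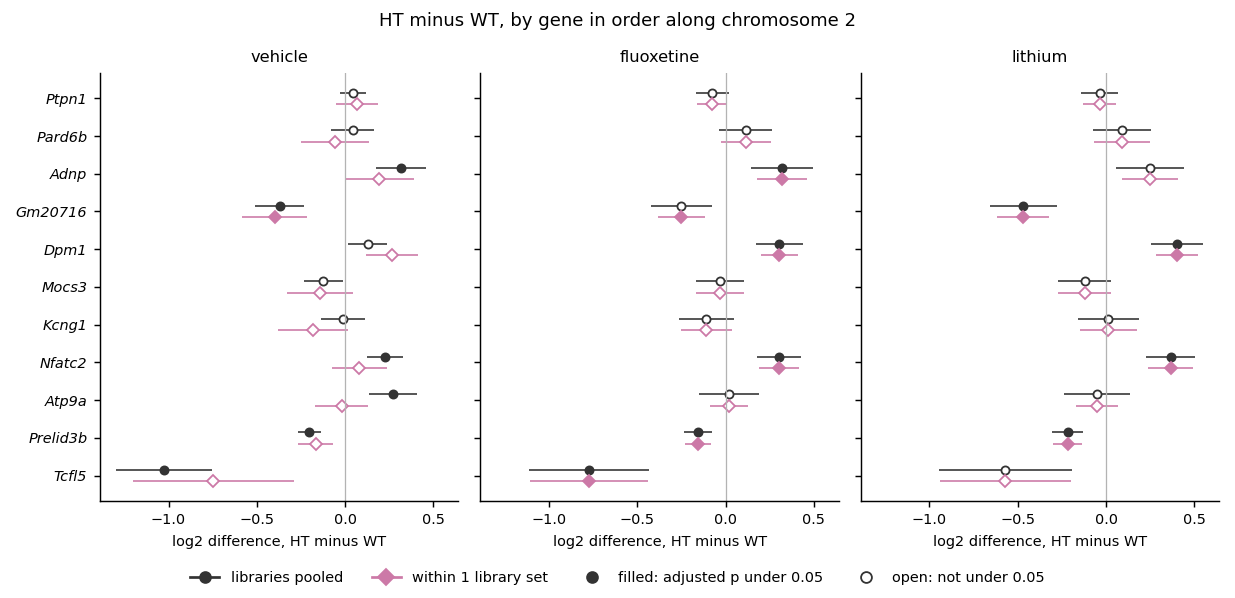
Log2 difference, HT minus WT, of the 9 members with Adnp and Gm20716, in order along chromosome 2, in each arm; points are fitted differences, lines 95% intervals, circles the fit with libraries pooled and diamonds the fit within 1 library set, filled where the adjusted p is under 0.05. Dpm1 and Nfatc2 lie right of 0 and Prelid3b and Tcfl5 left of it in all 3 arms, while Atp9a is 0.27 under vehicle with libraries pooled and -0.02 within set 2.

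Dpm1 encodes the catalytic subunit of dolichol-phosphate mannose synthase, which makes the mannose donor for N-glycans and GPI anchors in the endoplasmic reticulum. Under lithium the HT females had 652, 693, 698 and 634 normalized counts and the WT females 444, 533, 540, 420 and 509. The lithium HT males had 637, 565, 539, 566 and 615 and the WT males 466, 475 and 437. In each sex every HT library stood above every WT library. The share of all genes whose libraries separate so fully in groups this small is not given, here or below. The lithium means were 622 ± 56.4 in HT (SD, n = 9) and 478 ± 44.8 in WT (SD, n = 8), a 1.32-fold difference (log2 0.40, SE 0.08, adjusted p = 0.000488). Under fluoxetine HT libraries ran from 502 to 641 with a median of 579 and WT libraries from 398 to 557 with a median of 465 (log2 0.30, SE 0.07, adjusted p = 0.00442). All 10 HT libraries there exceeded the WT median, and 7 exceeded every WT library. Under vehicle HT libraries ran from 540.5 to 883 with a median of 618 and WT libraries from 435 to 721 with a median of 563, which overlapped widely. That difference did not pass (log2 0.13, SE 0.05, adjusted p = 0.104).

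The vehicle values of Dpm1 followed the library sets as well as the genotype. In set 2, HT libraries ran from 540.5 to 713 and WT libraries from 435 to 554 (log2 0.27, SE 0.07, adjusted p = 0.105). In set 3 the 2 HT males had 835 and 883, above all 10 WT libraries, which ran from 535 to 721. For males of set 3 the difference was 0.40 on the log2 scale (adjusted p = 0.0326), in a comparison where 1.03% of all genes passed. WT vehicle libraries of set 3 exceeded those of set 2 by 0.27 (adjusted p = 0.00118), with the same labels on both sides. Averaged over the arms the HT difference was 0.28 pooled (SE 0.04, adjusted p = 1.21e-07) and 0.32 within sets (SE 0.04, adjusted p = 9.27e-10).

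Gm20716, which takes in exons of Dpm1, moved the other way. Its lithium values ran from 1554 to 2025 in HT (median 1723) and from 2247 to 2764 in WT (median 2398), with no overlap. It was 0.723-fold in HT relative to WT under lithium (log2 -0.47, SE 0.10, adjusted p = 0.00179) and 0.774-fold under vehicle (log2 -0.37, SE 0.07, adjusted p = 0.000176). The vehicle call held within set 2 (log2 -0.40, adjusted p = 0.0183). Under fluoxetine it was 0.841-fold (adjusted p = 0.145 pooled and 0.0261 within set 1). Adnp, higher in HT under vehicle, was also higher under fluoxetine (log2 0.32, SE 0.09, adjusted p = 0.0388), a call lost in 11 of the 20 fits that left out 1 fluoxetine library. The lithium difference of Adnp was 0.25 and did not pass (SE 0.10, adjusted p = 0.188), although it did when only the lithium libraries were fitted (adjusted p = 0.0146).

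When the reads of Adnp and Gm20716 were added up, a step chosen after their values were seen, the sum was not higher in HT in any arm. The sums were 4189 ± 160 in HT and 4295 ± 236 in WT under vehicle (0.975-fold, log2 -0.04, SE 0.02, adjusted p = 0.269). Under fluoxetine they were 4314 ± 161 in HT and 4379 ± 128 in WT (0.985-fold, log2 -0.02, SE 0.03, adjusted p = 0.838), and under lithium 4100 ± 95.4 in HT and 4401 ± 154 in WT (0.928-fold, log2 -0.11, SE 0.03, adjusted p = 0.0498 pooled and 0.0218 within set 2). Averaged over the arms the sum was slightly lower in HT, pooled (log2 -0.06, SE 0.02, adjusted p = 0.0201) and within sets (log2 -0.07, SE 0.02, adjusted p = 0.00878). The division of the reads differed as well. Gm20716 held 45.8 ± 7.96% of the summed reads in HT and 57.5 ± 7.73% in WT under vehicle, 55.9 ± 5.98% in HT and 65.3 ± 4.57% in WT under fluoxetine, and 43.7 ± 4.02% in HT and 55.4 ± 3.70% in WT under lithium (SD throughout). The lithium shares ran from 39.6 to 48.9% in HT and from 51.4 to 62.7% in WT, with no overlap. Dpm1 and Gm20716 added up were lower in HT under vehicle (log2 -0.25, SE 0.05, adjusted p = 0.00075) and lithium (log2 -0.28, SE 0.07, adjusted p = 0.0175), with -0.16 (SE 0.07, adjusted p = 0.269) under fluoxetine. Within set 2 the vehicle value was -0.25 with an adjusted p of 0.151. All 3 genes added up gave 0.989-, 1.01- and 0.967-fold in HT under vehicle, fluoxetine and lithium, none of which passed (adjusted p = 0.666, 0.924 and 0.473). Because every exonic base of Gm20716 is shared, the levels of Adnp, Dpm1 and Gm20716 each depend on how the authors' counting divided shared reads. Gm20716 averaged 2298 normalized counts over all libraries and Dpm1 573, and 83.1% of the exonic bases of Gm20716 are Adnp exon. The sum of Dpm1 and Gm20716 therefore mostly follows Gm20716, and its sign does not tell the direction of Dpm1. The counting rule is not given in the sources used here.

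**Figure D2:**
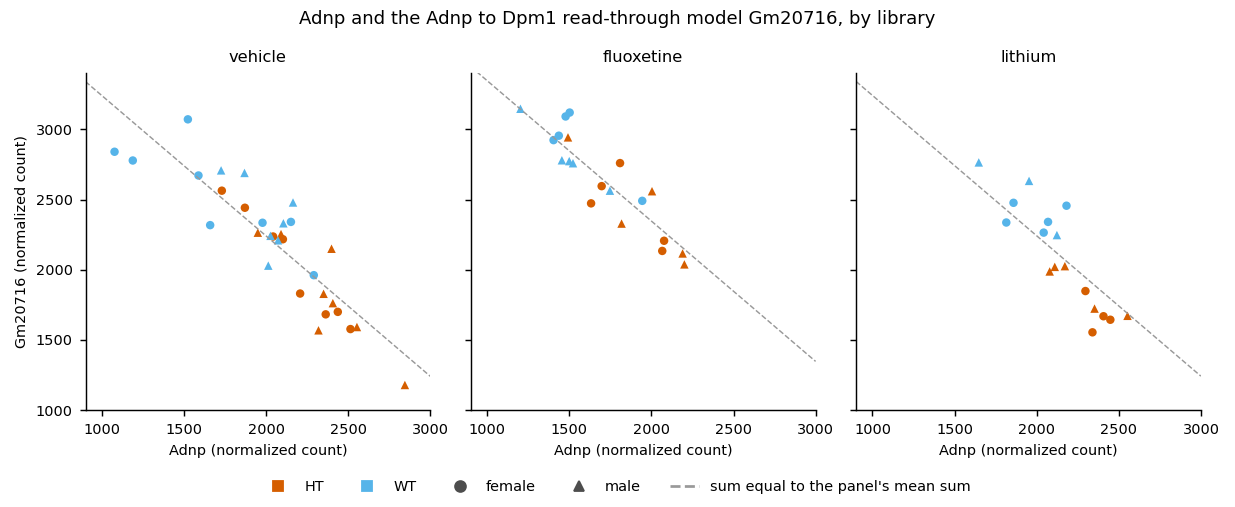
Normalized counts of Adnp (horizontal axis) and of the read-through model Gm20716 (vertical axis) in each library, HT and WT in colour and sex by symbol, 1 panel per arm; the dashed line joins points whose sum equals the panel's mean sum. Libraries lie along the line, with HT shifted towards Adnp and WT towards Gm20716, and under lithium the Gm20716 values are 2025 or less in HT and 2247 or more in WT.

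Nfatc2 encodes a transcription factor that enters the nucleus after dephosphorylation by calcineurin, a calcium-dependent phosphatase. It was higher in HT in each arm with libraries pooled. Under vehicle HT libraries ran from 335 to 483 with a median of 377, and WT libraries from 279 to 398 with a median of 326 (1.17-fold, log2 0.23, SE 0.05, adjusted p = 0.00188). All 16 HT libraries exceeded the WT median and 5 exceeded every WT library. Under fluoxetine HT libraries ran from 360.0 to 461 and WT libraries from 270.5 to 382 (1.23-fold, log2 0.30, SE 0.06, adjusted p = 0.00207). The 5 fluoxetine HT females had 385, 382, 385, 449 and 461, all above the WT females at 315, 309, 316, 312 and 319. Under lithium HT libraries ran from 349.7 to 505 and WT libraries from 281 to 383 (1.29-fold, log2 0.37, SE 0.07, adjusted p = 0.000759), and 7 of 9 HT libraries exceeded every WT library. The vehicle difference was smaller within set 2, with HT from 335 to 464 and WT from 356 to 398 (log2 0.08, SE 0.08, adjusted p = 0.999). WT vehicle libraries of set 3 had less Nfatc2 than those of set 2 (log2 -0.25, adjusted p = 0.00456). Averaged over the arms the difference was 0.30 pooled (SE 0.04, adjusted p = 2.72e-09) and 0.25 within sets (SE 0.04, adjusted p = 4.87e-06).

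Prelid3b encodes a small mitochondrial protein of the PRELI family, which carries phospholipids between the mitochondrial membranes together with Triap1. It was lower in HT by a small and even amount. Under lithium the 9 HT libraries ran from 873 to 981 with a median of 914 and the 8 WT libraries from 1004 to 1145 with a median of 1055, with no overlap (0.86-fold, log2 -0.22, SE 0.04, adjusted p = 0.00147). Under vehicle HT ran from 876 to 1040.0 with a median of 942 and WT from 982 to 1171 with a median of 1110.5 (0.869-fold, log2 -0.20, SE 0.03, adjusted p = 5.82e-06). There all 16 HT libraries were under the WT median and 12 were under every WT library. Under fluoxetine HT ran from 808 to 1046 and WT from 956 to 1145 (0.898-fold, log2 -0.16, SE 0.04, adjusted p = 0.0196), and this call was lost without HT female 1, HT male 2 or WT male 3 (adjusted p = 0.0515, 0.0751 and 0.0587). It was also lost when only the fluoxetine libraries were fitted (adjusted p = 0.0882). Within set 2 the vehicle difference did not pass (log2 -0.17, SE 0.05, adjusted p = 0.182), with HT from 876 to 948 and WT from 988 to 1058. The share of all genes that separate so in groups this small is not given. Averaged over the arms the difference was -0.19 pooled (SE 0.02, adjusted p = 1.05e-09) and -0.18 within sets (SE 0.02, adjusted p = 2.37e-07).

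Tcfl5 encodes a basic helix-loop-helix transcription factor known from germ cells of the testis, and it was the member with the lowest counts here. Under vehicle HT libraries ran from 10.5 to 21.1 with a median of 16.8 and WT libraries from 17.0 to 67.2 with a median of 34.955. The 8 vehicle HT females, from 10.5 to 20.7, were all below the 8 WT females, from 24.2 to 67.2, and 7 of 8 HT males were below every WT male. Adding 1 before taking logs shrinks the fold of so low a gene, and on that scale the vehicle difference was 0.492-fold (log2 -1.02, SE 0.14, adjusted p = 1.42e-07). Under fluoxetine HT ran from 9.06 to 29.7 and WT from 21.5 to 42.3 (0.585-fold, log2 -0.77, SE 0.17, adjusted p = 0.00431). Under lithium HT females had 13.6, 14.1, 16.6 and 11.7 and WT females 23.5, 24.7, 25.9, 18.7 and 22.8. The lithium HT males had 15.2, 15.9, 17.3, 9.75 and 16.6 and the WT males 18.8, 21.2 and 21.6. No lithium HT library reached a WT library, a separation whose share over all genes is not given. The fitted difference did not pass (log2 -0.57, SE 0.19, adjusted p = 0.0978 pooled and 0.0667 within set 2). It did pass when only the lithium libraries were fitted (adjusted p = 0.0291).

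Within set 2 under vehicle the Tcfl5 difference did not pass (log2 -0.75, SE 0.23, adjusted p = 0.22), with HT from 10.5 to 19.1 and WT from 23.0 to 29.4. In set 3 the 2 HT males had 14.2 and 15.1, and the 10 WT libraries ran from 17.0 to 67.2 (males only: log2 -1.20, adjusted p = 0.043). WT vehicle libraries of set 3 exceeded those of set 2 by 0.50 (adjusted p = 0.0493). The part of the sets in the pooled vehicle difference was not tested. Averaged over the arms the Tcfl5 difference was -0.79 pooled (SE 0.10, adjusted p = 5.29e-09) and -0.70 within sets (SE 0.12, adjusted p = 1.35e-05).

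**Figure D3:**
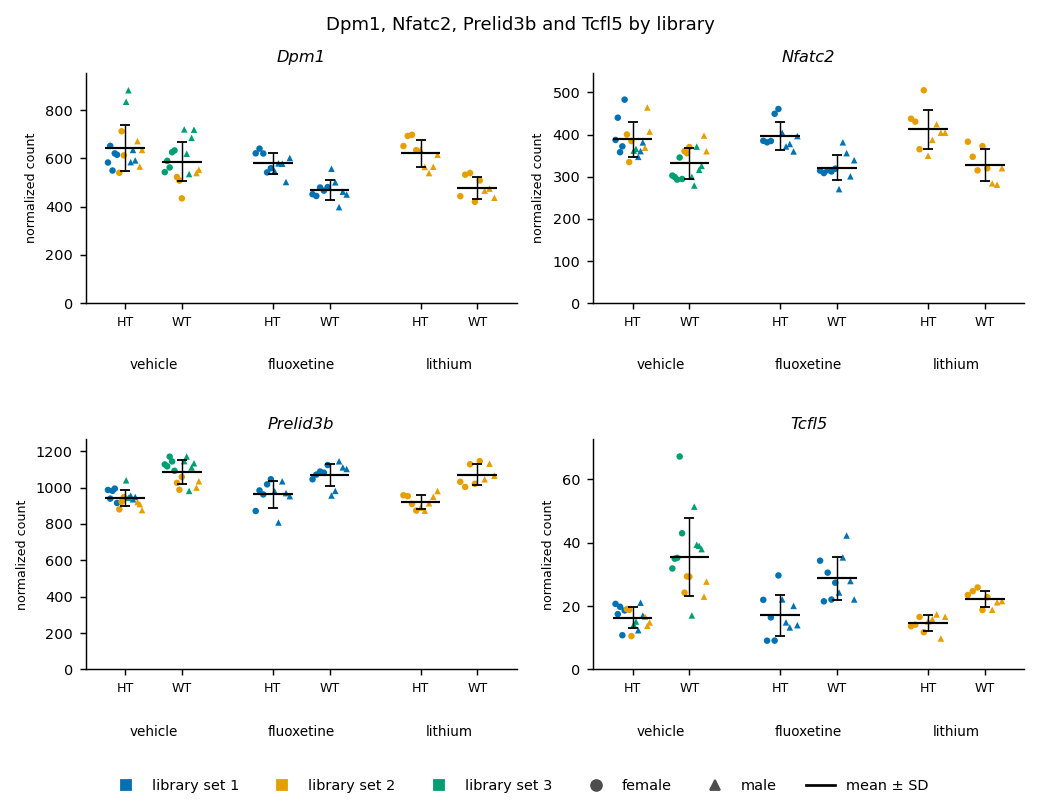
Normalized counts of Dpm1, Nfatc2, Prelid3b and Tcfl5 in each library, HT left of WT in each arm, coloured by library set with sex as symbol; bars are the mean and SD. Prelid3b and Tcfl5 do not overlap between genotypes under lithium, and the share of all genes without overlap is not given. The highest Tcfl5 value, 67.2, is a WT vehicle library of set 3.

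Atp9a encodes a P4-type ATPase of endosomes, a family that moves phospholipids between membrane leaflets, and it had the highest level of the members. Its vehicle difference went with the library sets. Pooled, HT libraries ran from 9135 to 13589 with a median of 12270 and WT libraries from 6982 to 13684 with a median of 9478 (1.21-fold, log2 0.27, SE 0.07, adjusted p = 0.00681). The call was lost when only the vehicle libraries were fitted (adjusted p = 0.0692). In set 2 the means were 12718 ± 579 in HT (SD, n = 6) and 12916 ± 590 in WT (SD, n = 5), and the sign turned (log2 -0.02, SE 0.08, adjusted p = 0.999). In set 3 the 2 HT males had 9135 and 9272 and the 10 WT libraries averaged 8658 ± 1155 (SD). WT vehicle libraries of set 3 were 0.666-fold those of set 2 (log2 -0.59, SE 0.07, adjusted p = 1.37e-09), in a contrast of equal labels where 42.4% of all genes passed. Under fluoxetine and lithium, where each arm lay in 1 set, the Atp9a difference was 0.02 (SE 0.09) and -0.05 (SE 0.10) and did not pass (adjusted p = 0.966 and 0.869).

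The other 4 members did not pass a genotype test with both sexes in any arm. Ptpn1, a tyrosine phosphatase that restrains insulin and leptin receptor signalling, had 1872 ± 170 in HT and 1816 ± 133 in WT under vehicle. Its pooled log2 differences in the arms lay between -0.08 and 0.04. Pard6b, a scaffold of the Par complex that sets cell polarity with atypical protein kinase C, had 132 ± 13.7 in HT and 129 ± 18.3 in WT, and its differences lay between 0.04 and 0.11. Mocs3 activates sulfur carrier proteins for molybdenum cofactor synthesis and tRNA thiolation. It had 185 ± 25.6 in HT and 201 ± 15.9 in WT under vehicle, and its difference there was -0.12 (SE 0.06, 95% interval -0.23 to -0.01, adjusted p = 0.121). By the GENCODE bounds Mocs3 lies 30 bases from Dpm1. Its differences under fluoxetine and lithium were -0.03 and -0.12 where those of Dpm1 were 0.30 and 0.40. Kcng1, an electrically silent potassium channel subunit that joins and modifies Kv2 channels, had 1579 ± 215 in HT and 1593 ± 212 in WT under vehicle, and its differences lay between -0.11 and 0.01. These averages hide opposite signs in the sexes. Under lithium Kcng1 means in HT and WT were 1590 and 1827 in females, 1918 and 1644 in males. Under fluoxetine they were 1756 and 1602 in females, 1592 and 2025 in males. Ptpn1 under fluoxetine had 1897 and 1793 in females, 1698 and 1991 in males. None of these 4 members passed within 1 sex, and the sexes were not compared under the drugs. Over the 3 arms together the 95% interval was -0.08 to 0.03 for Ptpn1, -0.17 to -0.02 for Mocs3 (adjusted p = 0.157) and -0.13 to 0.05 for Kcng1, and Pard6b was 0.08 (SE 0.04, adjusted p = 0.292).

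**Figure D4:**
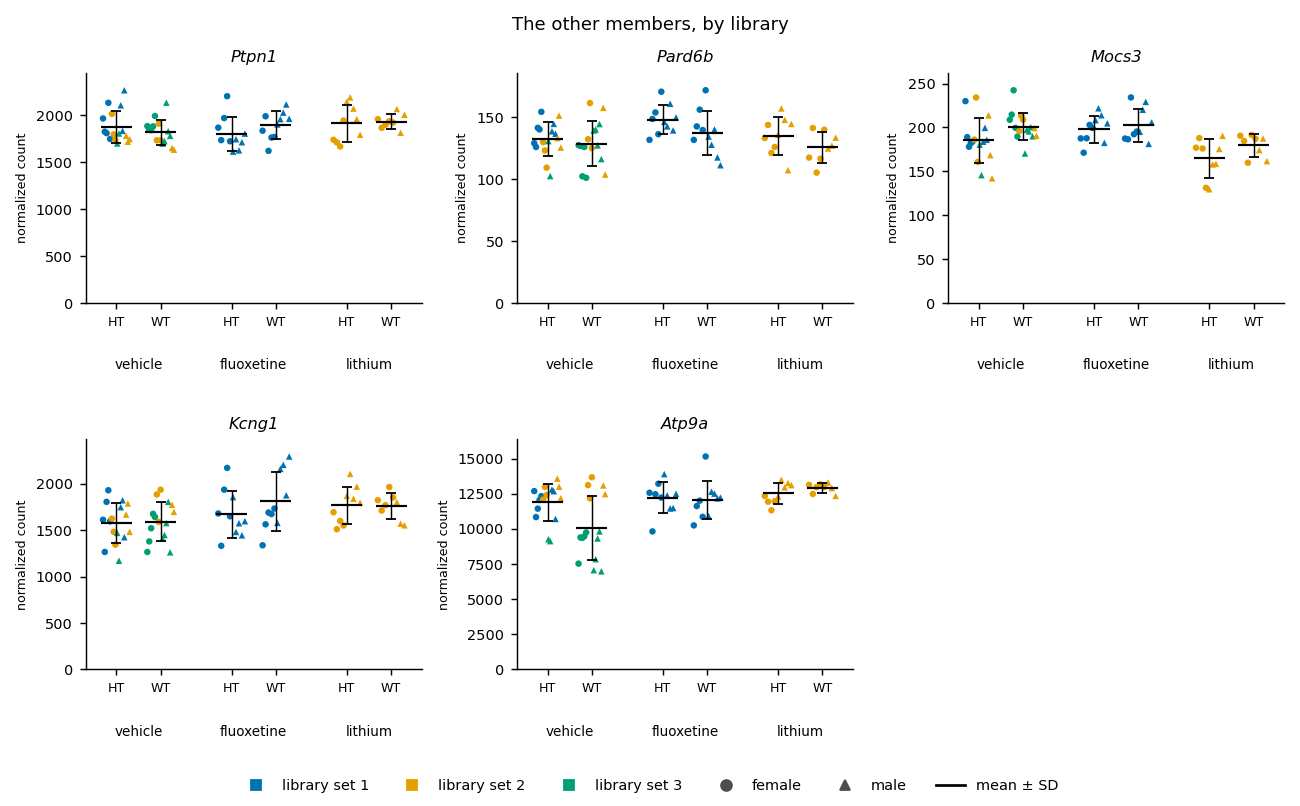
Normalized counts of Ptpn1, Pard6b, Mocs3, Kcng1 and Atp9a in each library, HT left of WT in each arm, coloured by library set with sex as symbol; bars are the mean and SD. HT and WT overlap in every panel and arm, and the Atp9a values of set 3, 9829 or less, lie below all other vehicle libraries.

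Whether the drugs changed these genes within a genotype was the next comparison. In HT mice no member passed for fluoxetine (1.22% of all genes passed) or lithium (1.52%) by limma, edgeR or DESeq2, with 2 members at an unadjusted p under 0.05 in each. In WT mice fluoxetine went with lower Dpm1 (469 ± 41.4 under fluoxetine and 586 ± 81.0 under vehicle; log2 -0.32, SE 0.06, adjusted p = 0.00304) and higher Atp9a (log2 0.29, SE 0.08, adjusted p = 0.0245), where 5.43% of all genes passed. The Atp9a call was lost without WT fluoxetine female 5 (adjusted p = 0.0671). Lithium in WT went with lower Dpm1 (478 ± 44.8 under lithium and 586 ± 81.0 under vehicle; log2 -0.30, adjusted p = 0.000524), higher Atp9a (log2 0.40, adjusted p = 0.000393) and lower Tcfl5 (log2 -0.60, adjusted p = 0.00513), where 36.1% of all genes passed. Both drug comparisons in WT use the same WT vehicle libraries, as does the genotype comparison under vehicle, and 10 of these 15 lie in set 3. Within set 2 the lithium differences in WT were -0.13 for Dpm1, 0.00 for Atp9a and -0.27 for Tcfl5, and no member passed by limma (adjusted p = 0.49, 0.997 and 0.691, 2 members at an unadjusted p under 0.05, 0.664% of all genes called). WT mice had no set with both fluoxetine and vehicle libraries, so that drug effect and the set cannot be told apart.

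The size of the genotype difference itself was compared between arms. No member passed for fluoxetine against vehicle (0.0% of all genes) or lithium against vehicle (2.8%), by limma, edgeR or DESeq2, and 2 members had an unadjusted p under 0.05 in each. The nearest were Dpm1, whose HT difference was 0.27 larger under lithium than under vehicle (SE 0.09, adjusted p = 0.0829), and Atp9a, whose difference was 0.32 smaller (log2 -0.32, SE 0.12, adjusted p = 0.106). Both use the vehicle libraries whose sets were unevenly mixed. Between males and females under vehicle no member passed by these 3 tools, none had an unadjusted p under 0.05, and 0.0% of all genes passed.

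Calls along the chromosome were counted by distance from Adnp. Among the 7 protein-coding genes in the first 1 Mb on the telomere side, 4 passed under vehicle, 3 under fluoxetine and 3 under lithium, which is 57.1%, 42.9% and 42.9%. Among all protein-coding genes 16.2%, 2.13% and 2.56% passed. Those 7 are Gm20716, Dpm1, Mocs3, Kcng1, Nfatc2, Atp9a and Zfp64, 5 of them members, with Gm20716 counted here although it overlaps Adnp. Within sets 1, 4 and 3 of the 7 passed under vehicle, fluoxetine and lithium, beside 0.572%, 3.10% and 4.75% of all protein-coding genes. Dpm1 and Gm20716 are counted as separate calls although they share exons. In the next window, 1 to 5 Mb, 0 of 17 genes passed by limma in any arm. There 3, 0 and 1 had an unadjusted p under 0.05, and edgeR and DESeq2 each called Rtf2 under vehicle and no other. From 5 to 15 Mb, which holds Prelid3b and Tcfl5, 18, 5 and 5 of 103 passed, and within sets 1, 7 and 7. On the centromere side 5, 1 and 0 of 14 passed within 1 Mb, and within sets 0, 1 and 0.

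Among the 14 neighbours within 1 Mb that are not members, libraries pooled, 7 passed under vehicle: Slc9a8, Spata2, Rnf114, Ube2v1 and Zfp64 were higher in HT and Cebpb and Gm20716 were lower. Of these only Gm20716 passed within set 2. Zfp64, which encodes a zinc finger protein, was also higher under fluoxetine (log2 0.17, adjusted p = 0.0352), and Ptgis, the prostacyclin synthase gene, was lower there (log2 -0.53, adjusted p = 0.00737). In the farther windows the gene with the smallest vehicle p was Sycp2, 10.1 Mb away, which encodes a protein of the meiotic chromosome axis. Sycp2 was higher in HT by 1.29 on the log2 scale under vehicle, 1.03 under fluoxetine and 1.61 under lithium, and by 1.71 within set 2 under vehicle, and all of these passed. It lies between Prelid3b and Tcfl5, both of which were lower in HT. Of the genes over 15 Mb away, Rhov, Crb2 and Ucma were higher in HT under vehicle (log2 0.58, 0.55 and 0.94). Within set 2 Rhov passed (log2 0.45, adjusted p = 0.0105), and Crb2 (log2 0.29, adjusted p = 0.715) and Ucma (log2 0.72, adjusted p = 0.256) did not.

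**Figure D5:**
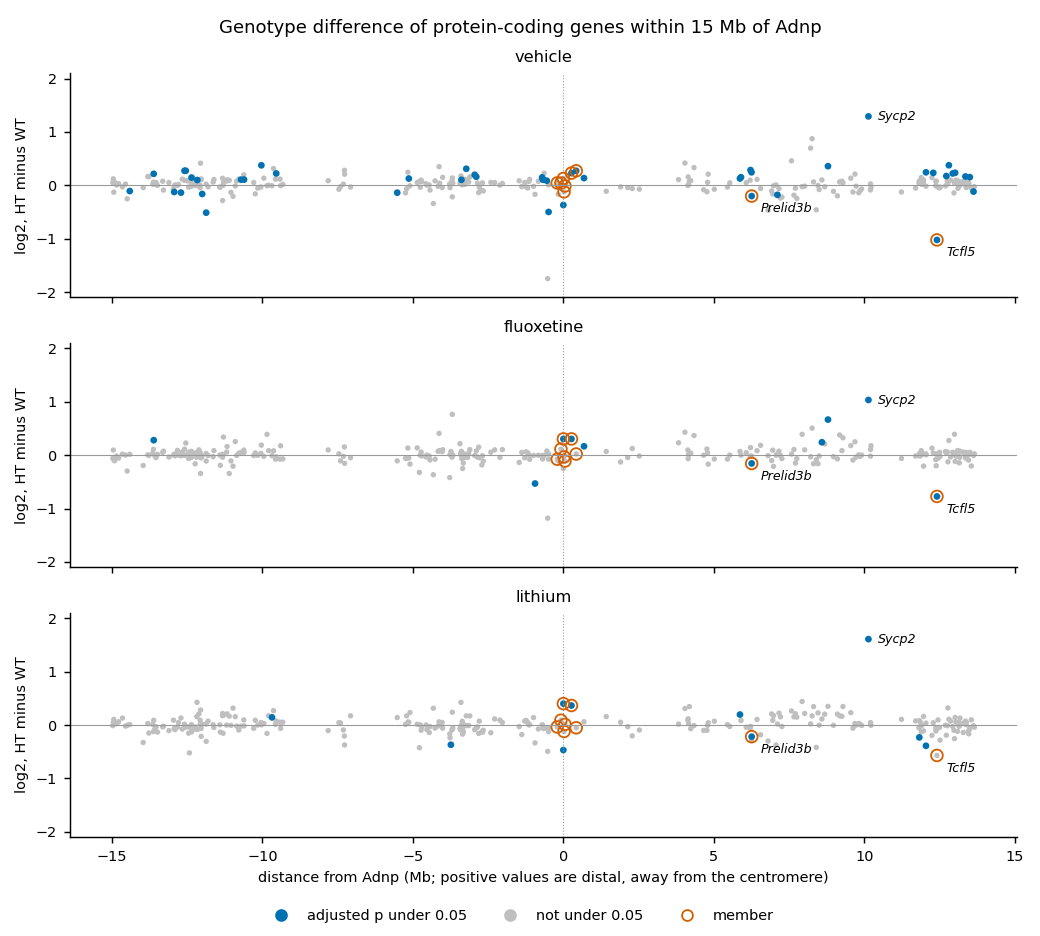
Log2 difference, HT minus WT, of the protein-coding genes within 15 Mb of Adnp against their distance in Mb (positive towards the telomere), 1 panel per arm; blue points passed at an adjusted p under 0.05, grey points did not, and open rings mark members. Sycp2 (1.29, 1.03 and 1.61) and Tcfl5 (-1.02, -0.77 and -0.57) stand apart in all 3 panels, and no gene between 1 and 5 Mb on the telomere side passed by limma.

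Partners of the members in their pathways were examined through 10 lists, with 101 of 109 listed genes tested. Under vehicle 3 partners were higher in HT and 5 lower, which together is 7.92% of them. Of all genes tested 2680 of 17922 passed (7.74% higher and 7.21% lower), together a larger share than of the partners. Within set 2 none passed by limma, with 3 at an unadjusted p under 0.05. The higher ones were Llgl1 and Llgl2, polarity proteins that oppose the Par complex of Pard6b (log2 0.15 and 0.40), and Borcs5 of the lysosome-positioning BORC complex (log2 0.14). The lower ones were Kcng3, a silent channel subunit like Kcng1 (log2 -0.50), Ppp3ca, the calcineurin catalytic subunit that acts on NFAT proteins (log2 -0.20), Atp10d, a flippase (log2 -0.27), Crls1, the cardiolipin synthase (log2 -0.22), and Tcf4, a basic helix-loop-helix factor (log2 -0.14). Under fluoxetine 3 were lower and none higher, 2.97% of the partners and close to the 1.98% of all genes called there (2.97% and 2.85% within set 1): Stat3, which relays leptin signals (log2 -0.25, adjusted p = 0.00385), Kcng4 (log2 -0.38) and Atp11a (log2 -0.15). Under lithium Mocs2, which receives sulfur from Mocs3, was lower (log2 -0.16, adjusted p = 0.0456), and it was the only one of the 101 to pass by limma, 0.990% of them and below the 2.51% of all genes. Within set 2 Dtnbp1 (lower in HT) and Nfat5 (higher) passed as well. With Mocs2 these are 2.97% of the partners, below the 4.49% of all genes called in that fit. The 14 genes of dolichol-phosphate mannose synthesis and use held no call in any arm by limma, edgeR or DESeq2, with 2, 5 and 4 at an unadjusted p under 0.05 by limma under vehicle, fluoxetine and lithium.

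Per kilobase of exon the members differed widely in level over all 68 libraries. Exon length here is the union of all annotated exons, 7.49 kb for Dpm1, so the levels and their order depend on the annotation. Those of Adnp and Dpm1 also depend on how reads shared with Gm20716 were divided. Atp9a was highest with 1989 ± 287 normalized counts per kb and Prelid3b next with 542 ± 47.4. Kcng1 had 372 ± 53.0 and Ptpn1 337 ± 28.4, which overlapped, as did Adnp at 369. Mocs3 had 96.2 ± 11.6 and Dpm1 76.6 ± 12.5, Pard6b 39.5 ± 4.76 and Nfatc2 34.4 ± 4.83, and within each of these pairs the ranges overlapped. Tcfl5 was lowest with 7.23 ± 3.35 per kb and had the largest relative spread, a coefficient of variation of 46.3%, against 8.42% for Ptpn1 at the other end.

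Genes with the most similar pattern were named for the 2 members with the smallest vehicle p, by Pearson's r over the 68 libraries after removal of the 12 group means. For Prelid3b these were Glrx3 (r = 0.73), Crls1 (r = 0.68) and Smim10l1 (r = 0.67). For Tcfl5 they were Washc3 (r = 0.54), Gm45716 (r = 0.48) and the pseudogene Gm19196 (r = 0.48). The libraries share the 3 sets and their depth, and the values are given as a description.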

How the data were processed

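The authors deposited 1 table for 68 libraries, in which the signal of each gene is its read count divided by a size factor. The submitters' processing notes name the GRCm38 build, DESeq2 1.19.11, Salmon 0.11.2 and R 3.6.0, without roles. Whether counting used the strand is not given in the sources used here. Whole reads were recovered from the step of each column.

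Limma 3.58.1 (R 4.3.3) was fitted to log2(value + 1) over 12 groups of genotype, drug and sex at the same time, with trended and robust variances. Each effect averages the contrast in females and that in males. Of all genes, 17922 averaged 5 or more and were tested, and 166 were left out. P-values were adjusted by Benjamini-Hochberg over all genes tested, and "passed" means an adjusted p under 0.05. edgeR 4.0.16 and DESeq2 1.42.0 were run on the recovered reads as alternatives, beside other filters, pseudocounts and scalings, a replicate block and leaving out each library. Library sets came from hierarchical clustering (average linkage, correlation distance) of centred pseudogene levels, cut at 3. Only the pooled limma fit of genotype under vehicle was tested on simulated reads. Those reads held no library sets, so that test does not tell how the fits behave where sets and genotype are mixed.

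Named genes are all members with Adnp, up to 8 called neighbours, up to 3 genes per distance window by vehicle p, up to 3 per pathway list and 3 per likeness search. Members, lists and tests were chosen with earlier results of these data known.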

Additional observations from a re-analysis of the deposited data

Results flagged for a closer look

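A library was examined more closely where it stood apart from the rest of its own group by the gap between it and its nearest neighbour. Among 121 sets of values, 11 genes in each of the 11 groups of 4 to 8 libraries, 10 values stood apart, and chance alone would give about 1 in 20. The values high in their groups were Ptpn1 in WT vehicle male 3 (2131 normalized counts), Adnp in WT fluoxetine female 5 (1944), Mocs3 in WT fluoxetine female 3 (234) and in WT vehicle female 3 (242), and Tcfl5 in WT vehicle female 4 (67.2). The values low in their groups were Mocs3 in WT lithium female 3 (160) and WT vehicle male 1 (170), Atp9a in WT fluoxetine male 1 (10919) and WT lithium female 2 (12497), and Tcfl5 in HT lithium male 4 (9.75). No library was named for more than 1 gene. The genotype calls of Tcfl5 under vehicle and fluoxetine did not change when any library was left out.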

How the results depend on the processing

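Over the settings tried, the vehicle calls of Tcfl5, Nfatc2 and Prelid3b were lost within set 2, and those of Nfatc2 and Prelid3b also in set 3 males. Within set 2 the vehicle count fell to 0 of 9 members, against 4 with libraries pooled, and set 3 males gave 2 (Dpm1 and Tcfl5). Lithium in WT gave 3 calls pooled and 0 within set 2, and of the 21 genes within 1 Mb 11 were called in at least 1 arm when pooled and 5 within sets. The share of all protein-coding genes called in at least 1 arm is not given. Under vehicle alone 16.2% of them passed pooled and 0.572% within set 2. With only the groups compared, fluoxetine in WT gave 1 call, against 2. In that setting the calls of Prelid3b under fluoxetine and of Atp9a under vehicle were lost (adjusted p = 0.0882 and 0.0692). Tcfl5 and Adnp passed there under lithium (adjusted p = 0.0291 and 0.0146). Atp9a under vehicle turned to -0.020 within set 2. The sum of Adnp and Gm20716 gave -0.037, -0.022 and -0.11 under vehicle, fluoxetine and lithium. That of Dpm1 and Gm20716 gave -0.25, -0.16 and -0.28, and it mostly follows Gm20716, the larger part. The cause of these changes was not tested.

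Leaving out 1 library gave 3 to 4 calls for genotype under fluoxetine, 1 to 2 for fluoxetine in WT, 3 to 4 for lithium in WT and 0 to 2 for the genotype effect of lithium against vehicle. The last held a call without HT vehicle male 1 or 2, WT vehicle female 8, or WT vehicle male 6 or 7. Counts under vehicle and lithium were 4 and 3 throughout. Adnp under fluoxetine lost its call in 11 of 20 such fits.

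Replicate numbers did not pair the samples: over 32 same-numbered HT and WT pairs the correlation of deviations had a median of 0.05, from -0.24 to 0.44, and 9 matched their own number best. A replicate block gave 2 calls for lithium in HT, 5 for lithium in WT and 2 for the genotype effect of lithium against vehicle. With the block 20.9% of all genes were called for lithium in HT (3746 genes, against 273) and 49.4% for lithium in WT. Replicate numbers 6 to 8 exist only under vehicle and lie in set 2. With the block the drug comparisons therefore rest on vehicle replicates 1 to 5, of sets 1 and 3. Lithium, all in set 2, and the set cannot be told apart there. The share for the genotype effect with the block is not given.

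Over all genes, genotype under vehicle gave 2680 calls pooled, 858 with only the groups compared and 96 within set 2. Fluoxetine in WT gave 974, 80 with only its groups and 4003 with the block. Fluoxetine in HT gave 218, 370 by DESeq2, 398 with the block and 30 within set 1. Lithium in HT gave 449 by DESeq2, 495 with only its groups and 29 within set 2. Lithium in WT gave 6478, 4254 with only its groups and 119 within set 2, and genotype under lithium gave 450 and 805. A filter at a mean of 50 left Tcfl5 untested. Tcfl5, at a mean of 22.9 normalized counts over all libraries, has the fewest reads behind its values.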
